A study of Mus musculus with 15 samples.

Results

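The genes described here are the chemokines and atypical chemokine receptors of the mouse heart, taken as every gene whose symbol was Ccl, Cxcl, Cx3cl, Xcl or Ackr followed by a number and at most 1 letter and whose expected counts summed to at least 10 over all 15 hearts. Of 43 genes with such a symbol, 36 met the count minimum, among the 26829 genes that met it out of 55401 gene identifiers. They were 18 CC chemokines, 12 CXC chemokines, Cx3cl1 and Xcl1 of the CX3C and XC classes, and the 4 atypical receptors Ackr1, Ackr2, Ackr3 and Ackr4. Ccl1, Ccl17, Ccl20, Ccl21d, Ccl26, Ccl27b and Cxcl3 stayed under 10 counts and were not tested.

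The study followed the heart during treatment with isoproterenol, an agonist of β-adrenergic receptors that is used in mice to induce hypertrophy and fibrosis. Male C57BL6 mice aged 12 weeks received 50 mg/kg/day under the skin for 4 days (4-day, n = 4 hearts), 8 days (8-day, n = 3) or 11 days (11-day, n = 4), or saline in its place (saline, n = 4). All times are compared with the same saline hearts, whose labels do not give the length of saline treatment. Another 8-day heart was excluded by the authors. Hearts were flushed with KCl and buffered saline before a piece was frozen, total RNA was sequenced, and hearts are called by their group and a letter.

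Libraries held 25.4 M to 117.8 M (mega) expected counts, and those of the 8-day group 25.4 M to 46.6 M. Mitochondrial ribosomal RNA took 39.7 to 50.4% of the counts, and in 8-day A the pair CT010467.1 and Lars2 took 15.8%, against at most 0.092% elsewhere. The summed level of 5 cardiomyocyte markers was 24206 to 31672 CPM (counts scaled to library size with TMM factors) in every heart. CPM and fold changes are relative to the TMM scale. When libraries were scaled by their size only, the typical gene shifted at 4 days (median log2 fold change 0.21, against 0.006 with TMM), and 2533 genes were called higher and 293 lower, against 1626 and 914. Size scaling moved the calls at 8 days to 167 higher and 280 lower, against 288 and 322 with TMM, and those at 11 days to 415 and 220, against 483 and 523. Between times it moved the calls to 22 higher and 513 lower at 8 against 4 days (16 and 51 with TMM) and to 317 and 2400 at 11 against 4 days (1006 and 1760 with TMM).

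Chemokines are small secreted proteins, named CC, CXC, CX3C or XC after the spacing of their first cysteines, that guide leukocytes through conventional G protein-coupled receptors. Atypical receptors bind chemokines without G protein signalling and take them up, which shapes gradients. Ackr3 takes up Cxcl12 and Cxcl11, Ackr4 takes up Ccl19, Ccl21 and Ccl25, Ackr2 takes up inflammatory CC chemokines, and Ackr1 is carried by red cells and venules. In the injured heart, Ccl2 and its relatives draw monocytes through Ccr2, and Cxcl12 acts on Cxcr4.

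Cxcl12 had the most RNA of these genes, and its transcripts are shown first because they differ in what they encode. All coding transcripts share 267 coding bases, and Cxcl12-202 (89 codons, the alpha form) ends there. Cxcl12-203 (93 codons, beta) adds 12 bases and Cxcl12-201 (119 codons, gamma) adds 90, which give the gamma form its long basic tail. The gene lies on chromosome 6 (GRCm38, GENCODE M21, chr6:117168535-117181367, plus strand). Below, 24 shared bases before the stop codon or the point of divergence are in lower case and the bases of each transcript alone in capitals.
Cxcl12-202: tacctggagaaagctttaaacaag
Cxcl12-203: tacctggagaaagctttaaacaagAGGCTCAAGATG
Cxcl12-201: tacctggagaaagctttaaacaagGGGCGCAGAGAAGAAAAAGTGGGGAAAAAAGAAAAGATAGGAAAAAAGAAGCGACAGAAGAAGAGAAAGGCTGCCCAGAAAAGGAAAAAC

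Promoters are shown for Ccl8 and Ccl12, neighbours on chromosome 11 whose RNA was lower after 11 days than after 4 days, and for Cxcl10, the member with the lowest fold change in that comparison among those past the threshold. They are the 250 bases before the start of each gene from RefSeq (GRCm38.p6), which matched 26 of the 36 members. Capitals mark the only run of 8 or more bases that Ccl8 (chr11:82114935-82115184, plus strand) and Ccl12 (chr11:82101595-82101844, plus strand) share at the same distance from the start, GGAAATCA at -128 to -121, and the 2 matches to the kappaB consensus in Cxcl10 (chr5:92348890-92349139, minus strand).
Ccl8: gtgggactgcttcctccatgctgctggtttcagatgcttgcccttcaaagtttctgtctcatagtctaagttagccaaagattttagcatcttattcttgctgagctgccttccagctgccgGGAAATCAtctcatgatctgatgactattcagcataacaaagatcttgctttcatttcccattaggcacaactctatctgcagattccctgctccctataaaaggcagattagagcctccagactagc
Ccl12: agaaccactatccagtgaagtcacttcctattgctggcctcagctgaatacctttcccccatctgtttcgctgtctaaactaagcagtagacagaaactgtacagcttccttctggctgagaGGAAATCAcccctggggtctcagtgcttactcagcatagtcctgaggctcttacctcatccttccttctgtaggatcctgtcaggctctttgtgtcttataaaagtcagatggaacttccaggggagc
Cxcl10: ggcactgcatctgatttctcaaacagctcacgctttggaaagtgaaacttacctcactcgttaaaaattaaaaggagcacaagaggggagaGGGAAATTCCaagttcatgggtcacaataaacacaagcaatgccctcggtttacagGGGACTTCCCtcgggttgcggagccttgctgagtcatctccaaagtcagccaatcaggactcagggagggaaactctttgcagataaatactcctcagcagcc
The Ccl8 and Ccl12 windows were identical at 90 of 250 positions. On both strands, the kappaB consensus was found in the windows of 5 of 26 members (Ackr2, Ccl9, Cxcl1, Cxcl2 and Cxcl10), and 3.9% of the windows of all genes held it. TTCNNNGAA was found in that of Cxcl14, and 7.02% of all windows held it. The same motif with 1 more N was found in that of no member, and 5.85% of all windows held it. Overlaps between the motifs were not removed, and a match is a description of the letters.

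Levels per length (FPKM) placed Cxcl12 first, at 11.3 ± 2.41 (SD, n = 15 hearts), followed by Ccl21a at 9.15 ± 2.74 and Ackr3 at 8.31 ± 2.09, and these 3 neighbours overlapped in their spread. Together they held 49.9% of the summed FPKM of the 36 genes. Ccl27a followed at 4.74 ± 0.752 FPKM and Ccl6 at 3.66 ± 1.49 FPKM. In all, 12 members averaged at least 1 FPKM, 13 averaged less than 0.1 FPKM, and 11 had fewer than 100 counts over all hearts, so changes of these last genes were hard to detect at this depth. The Cxcr2 ligands Cxcl1, Cxcl2 and Cxcl5 averaged 0.324, 0.027 and 0.093 FPKM.

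**Figure D1:**
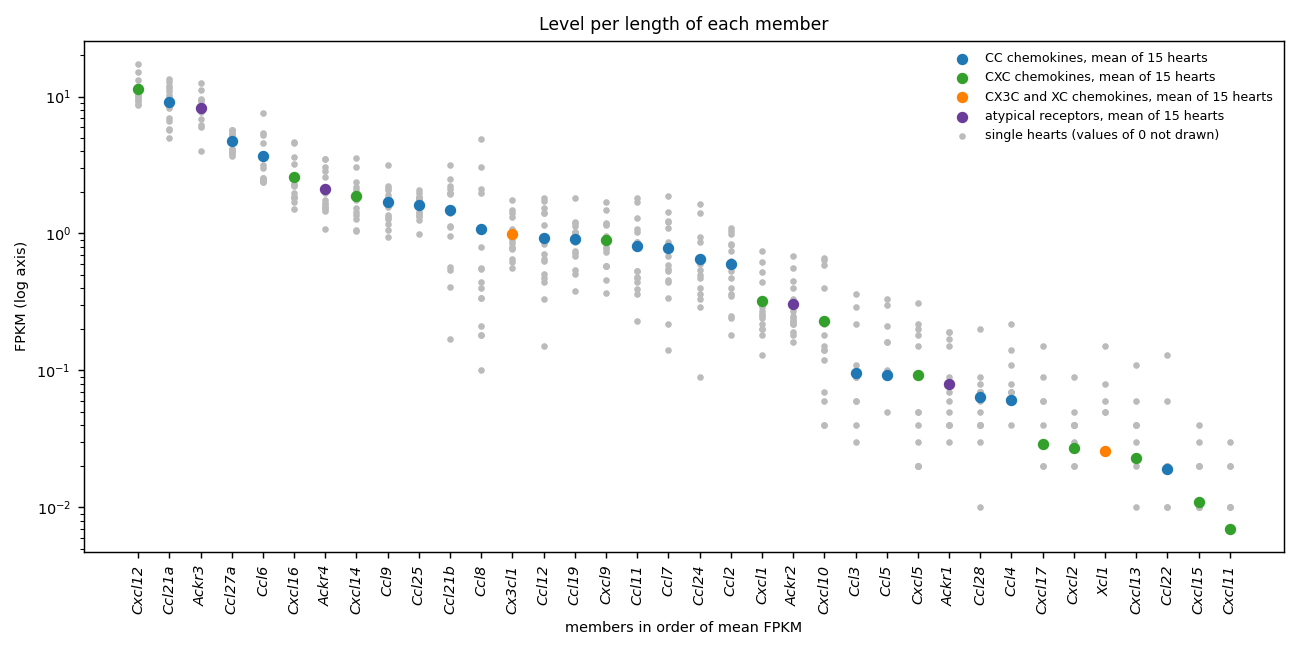
FPKM of each of the 36 members on a log axis, in order of their mean over 15 hearts (coloured by class), with single hearts in grey and values of 0 not drawn. Cxcl12, Ccl21a and Ackr3 stand at 8.31 to 11.3 FPKM on average, and 13 members average less than 0.1 FPKM.

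After 4 days of isoproterenol, Ccl8, Cxcl5, Cxcl16, Ackr3 and Ackr4 rose and Ccl11, Ccl24 and Cxcl14 fell against saline, by edgeR's quasi-likelihood test at a Benjamini-Hochberg adjusted p under 0.05 over all 26862 genes tested. These 5 and 3 members of 36 (22.2%) compare with 6.05% of all genes called higher and 3.4% called lower. In 7 members the 4-day and saline hearts did not overlap (4 above, 3 below), against 13.7% of all genes. The members had a median log2 fold change of 0.28, against 0.006 over all genes. After 8 days 1 member was called, Ackr3, which rose (1.07% of all genes were higher and 1.2% lower), and 5 of 36 members had an unadjusted p under 0.05, close to the 13% of all genes. Hearts of the 8-day and saline groups did not overlap in 6 members, against 12.9% of all genes. After 11 days Ackr3 rose and Cxcl12 fell (all genes, 1.8% higher and 1.95% lower), and groups did not overlap in 4 members, against 10.6% of all genes. The members had a median of 0.06 at 8 days (0.09 without Xcl1, Cxcl13 and Cxcl17, which had no count in 8-day hearts) and -0.15 at 11 days, against -0.01 over all genes at both times. The comparisons share the saline hearts and are not independent. With library size alone the 4-day calls were 6 higher and 2 lower, Ccl12 joining and Cxcl14 leaving, those at 8 days 0 higher and 2 lower (Ccl11 and Ccl24), and those at 11 days 1 higher and 0 lower. By DESeq2 they were 2 higher and 2 lower at 8 days and 1 higher and 2 lower at 11 days. Over all genes DESeq2 called 459 higher and 539 lower of 16402 tested at 8 days, and 755 and 880 of 16421 at 11 days.

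Tested over all 4 groups together, 14 members changed (38.9%, against 13% of all genes), the 9 above and Ccl2, Ccl12, Ccl21a, Cxcl9 and Cxcl10. Compared between times, Ccl8 was the only member that differed between 8 and 4 days, being lower at 8 days (0.0596% of all genes were higher and 0.19% lower). Between 11 and 4 days, Ccl21a and Cxcl14 were higher at 11 days, and Ackr4, Ccl2, Ccl8, Ccl12, Cxcl5, Cxcl10 and Cxcl16 were lower, 9 members of 36, against 3.75% of all genes higher and 6.55% lower. Between 11 and 8 days edgeR and DESeq2 called 0 members, with 7 of 36 at an unadjusted p under 0.05 by edgeR, against 11.2% of all genes (adjusted calls of all genes, 0.0596% higher and 0.0782% lower). With 3 or 4 hearts a group, p-values set a group difference against the spread between hearts, which edgeR estimates with information from all genes. In bulk tissue, fewer cells of a type cannot be told apart from less RNA per cell.

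**Figure D2:**
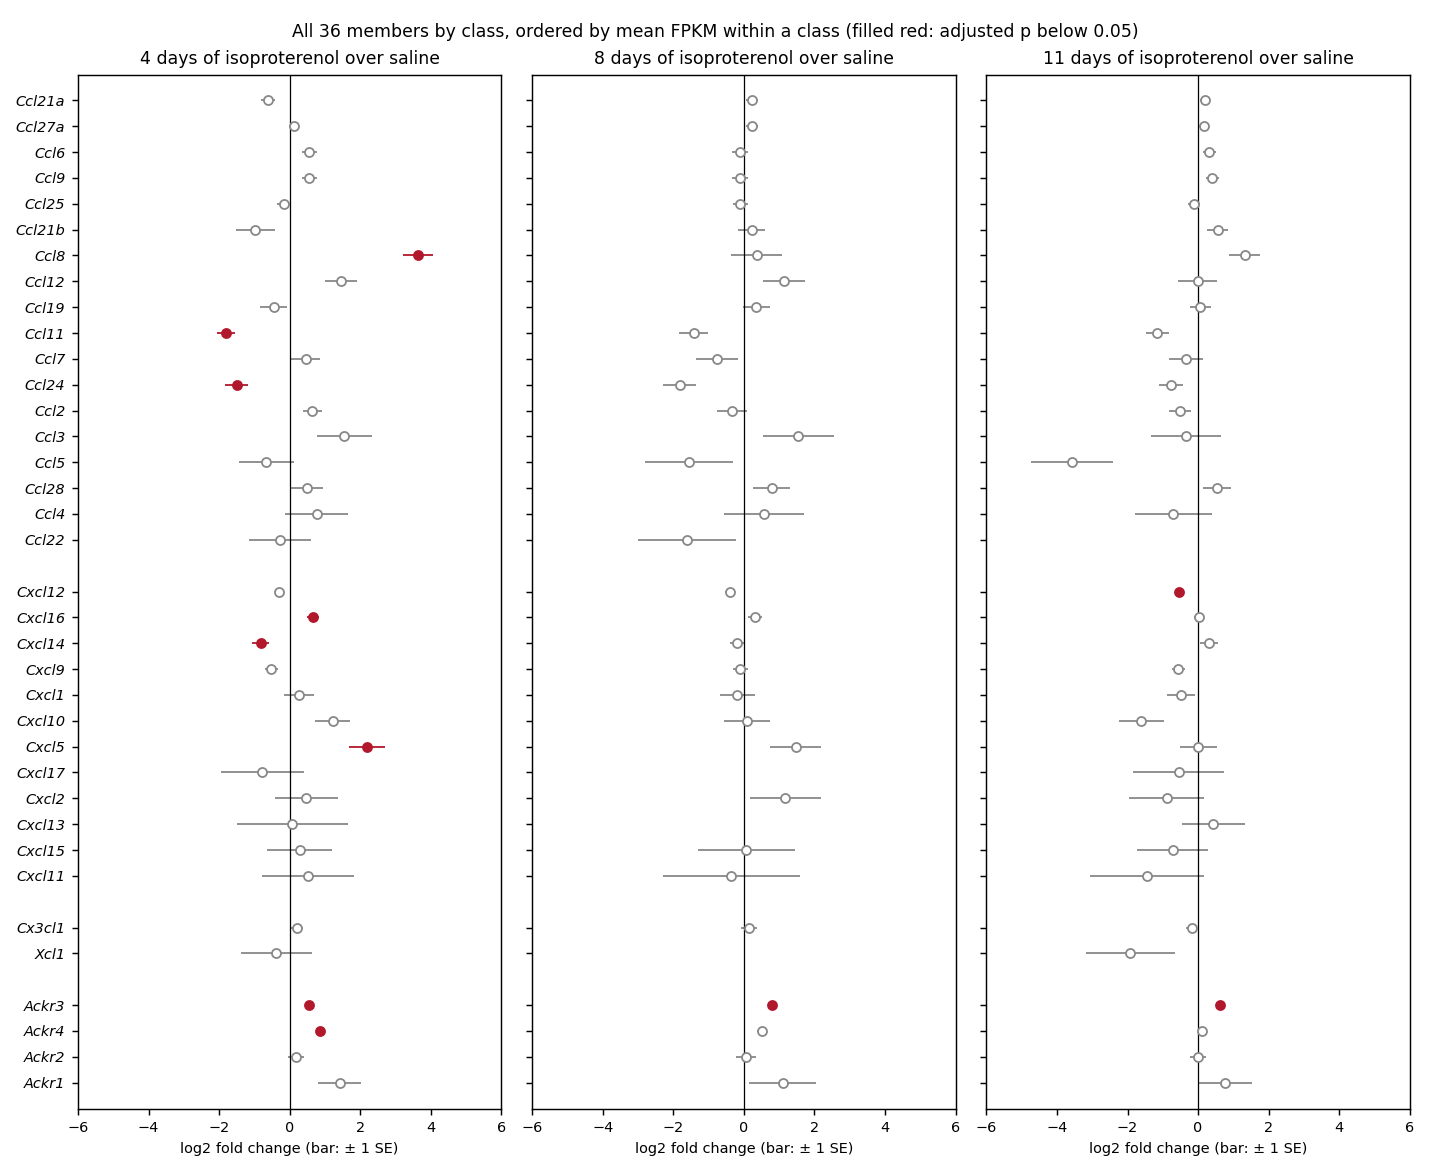
Log2 fold change over saline, with 1 SE to each side, of the 36 members at 4, 8 and 11 days, by class. Filled red points passed an adjusted p of 0.05 (8 members at 4 days, 1 at 8 days, 2 at 11 days), and a member with no count in 1 of the groups is not drawn in that panel.

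Ccl8, a CC chemokine, had the largest fold change of the members at 4 days. It stood at 1.47, 1.05, 0.613 and 0.622 CPM in 4-day hearts, against 0.072, 0.0588, 0.0591 and 0.169 CPM in saline hearts. All 4-day hearts were above all saline hearts, on 19 to 169 counts a heart against 2 to 7. The log2 fold change was 3.63 ± 0.42 (SE, adjusted p = 0.000352), and the call held with each heart left out in turn (adjusted p 0.000231 to 0.00315). Ccl8 stood at 0.152, 0.127 and 0.0319 CPM in 8-day hearts, 3.21 ± 0.52 log2 units below 4 days (adjusted p = 0.0365). That call was lost without 4-day D (0.0661), 8-day A (0.132), 8-day B (0.147) or 8-day C (0.0575), and with filterByExpr (0.0757) or effective lengths (0.0573). In 11-day hearts Ccl8 had 0.15, 0.193, 0.269 and 0.179 CPM, 2.29 ± 0.33 log2 units below 4 days (adjusted p = 0.00102), and its difference from saline missed the threshold (1.32 ± 0.44, adjusted p = 0.129).

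Ccl8 is the last of 5 CC chemokine genes in a row on the plus strand of chromosome 11 (GRCm38), in the order Ccl2 (start 82035571), Ccl7 (82045712), Ccl11 (82057823), Ccl12 (82101845) and Ccl8 (82115185). Ccl12, a mouse ligand of Ccr2, had 0.452, 0.565, 0.446 and 0.622 CPM in 4-day hearts, against 0.054, 0.412, 0.118 and 0.295 CPM in saline hearts. The groups did not overlap, but saline B was close (log2 fold change 1.45 ± 0.45, adjusted p = 0.0619 by edgeR, 0.0357 by DESeq2 and 0.00943 without saline B). Ccl12 was lower in 11-day hearts, at 0.169, 0.165, 0.233 and 0.179 CPM, than in 4-day hearts (-1.43 ± 0.25, adjusted p = 0.00295), with no overlap. Its 8-day hearts were spread over 0.287 to 0.677 CPM. Ccl12 over all groups (adjusted p = 0.0295) was lost without saline C, any 4-day heart or 11-day A, B or D (0.0501 to 0.0671).

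Ccl2, the main monocyte attractant through Ccr2, was also lower at 11 than at 4 days. It held 0.652, 0.668, 0.548 and 0.556 CPM in 4-day hearts, against 0.342, 0.559, 0.406 and 0.211 CPM in saline hearts, where saline B overlapped (0.64 ± 0.26, adjusted p = 0.164). In 11-day hearts it held 0.244, 0.275, 0.197 and 0.349 CPM, all below the 4-day hearts (-1.15 ± 0.23, adjusted p = 0.00666). Its 8-day hearts held 0.183, 0.296 and 0.447 CPM, 0.98 ± 0.33 log2 units below 4 days (adjusted p = 0.229). The call over all groups (adjusted p = 0.0286) was lost without 4-day A, B or C or 11-day A, B or C (0.0533 to 0.106). Ccl7, another Ccr2 ligand, had 0.464 to 0.899 CPM in 4-day hearts, against 0.169 to 1.15 CPM in saline hearts (0.45 ± 0.42, adjusted p = 0.607), with saline B the highest of all hearts (adjusted p = 0.0437 without it).

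Ccl11 and Ccl24, the eotaxins, which attract eosinophils through Ccr3, fell at 4 days. Ccl11 had 0.374, 0.437, 0.409 and 0.327 CPM in 4-day hearts, against 1.57, 1.15, 0.921 and 2.03 CPM in saline hearts. The 4-day hearts lay within a narrow band below every saline heart, and the log2 fold change was -1.81 ± 0.26 (adjusted p = 0.000917, 0.00104 to 0.00499 with each heart left out). In 8-day hearts Ccl11 had 0.549, 0.846 and 0.191 CPM, all below saline (-1.42 ± 0.40, adjusted p = 0.0988 by edgeR and 0.0214 by DESeq2). In 11-day hearts it had 0.487, 0.798, 0.969 and 0.309 CPM, with 11-day C above saline C (-1.15 ± 0.34, adjusted p = 0.0817 by edgeR and 0.0162 by DESeq2).

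Ccl24, on chromosome 5, had 0.27, 0.205, 0.344 and 0.294 CPM in 4-day hearts, against 0.558, 1.06, 0.558 and 1.27 CPM in saline hearts. The groups did not overlap (-1.498 ± 0.32, adjusted p = 0.00958, 0.00931 to 0.0353 with each heart left out). In 8-day hearts it had 0.305, 0.296 and 0.0957 CPM, again below every saline heart (-1.82 ± 0.46, adjusted p = 0.0576 by edgeR and 0.012 by DESeq2). In 11-day hearts it had 0.337, 0.523, 0.735 and 0.339 CPM, and 11-day C reached into the saline range (-0.77 ± 0.34, adjusted p = 0.263). Both eotaxins changed over all groups (Ccl11, adjusted p = 0.00701 and Ccl24, 0.0111), also with each heart left out (at most 0.0324). Of 5 eosinophil markers, Epx, Prg2 and Siglecf had too few counts to test and the other 2 were not called, their sum being 0.36 to 0.54 CPM in 4-day hearts, against 0.30 to 0.68 CPM in saline hearts.

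**Figure D3:**
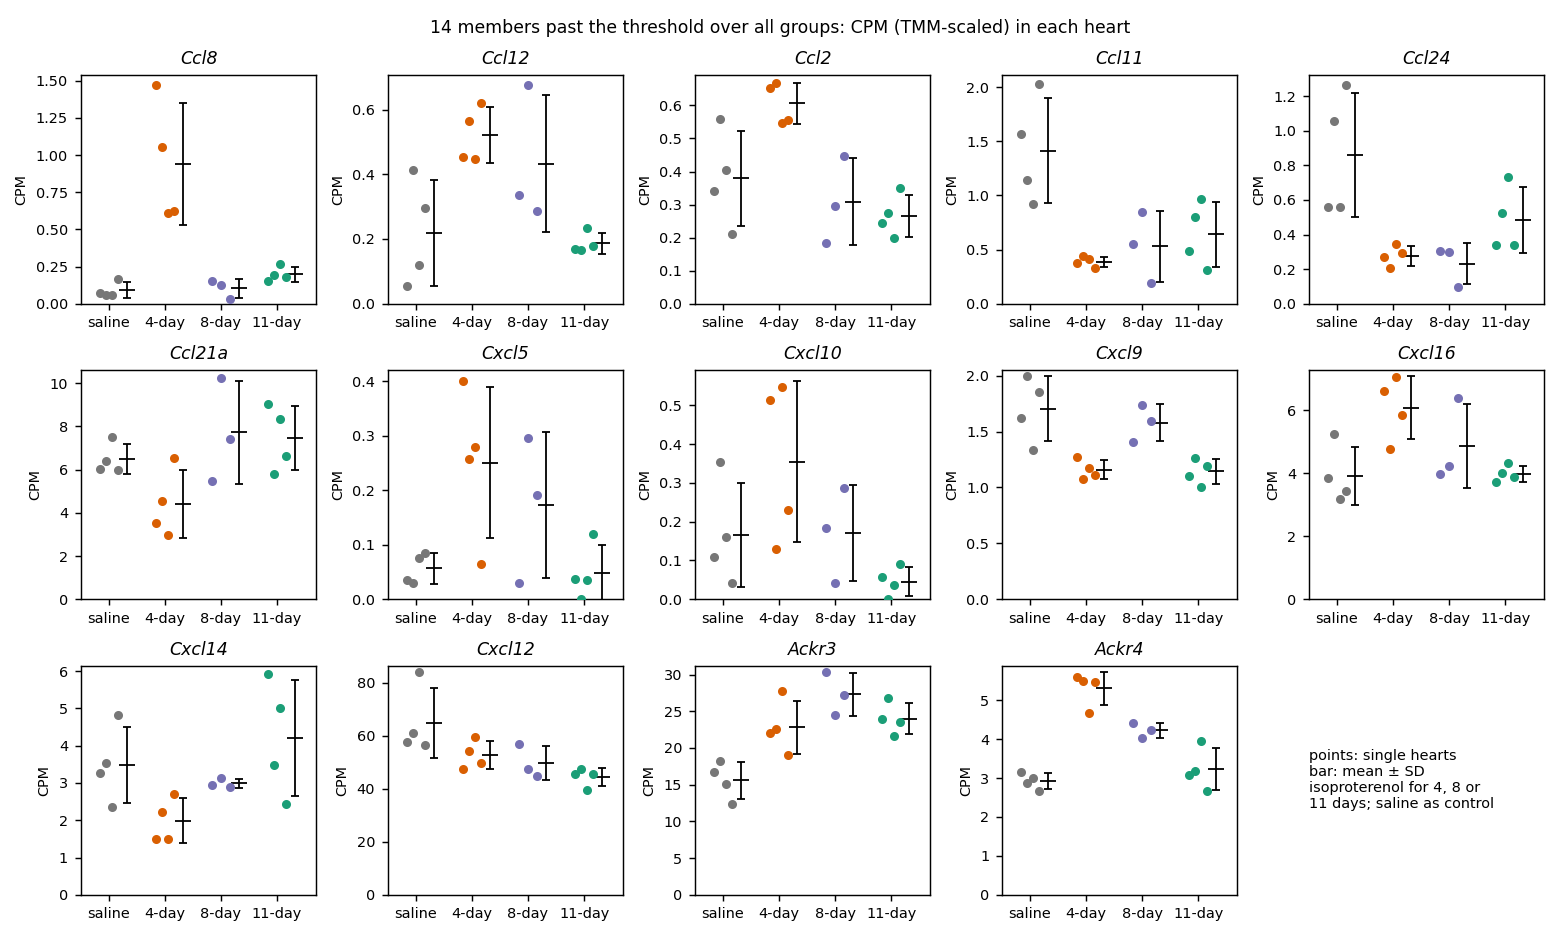
CPM (TMM-scaled) in each heart for the 14 members past the threshold over all groups, with the mean and SD beside the points (bars stop at 0). Ccl8 in 4-day hearts (0.613 to 1.47 CPM) lies above every other heart, Ccl11 and Ccl24 lie below saline at 4 days, and Ackr3 lies above saline at each time.

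Ccl21a, a ligand of Ccr7 made by lymphatic endothelium, was the most abundant CC chemokine per length. It had 3.53, 4.57, 2.95 and 6.54 CPM in 4-day hearts, against 6.05, 6.41, 7.50 and 5.99 CPM in saline hearts, with 4-day D inside the saline range (-0.60 ± 0.20, adjusted p = 0.0803 by edgeR, 0.0403 by DESeq2 and 0.00803 without 4-day D). Its levels were 5.49, 10.2 and 7.43 CPM in 8-day hearts and 9.04, 5.81, 8.36 and 6.65 CPM in 11-day hearts. Ccl21a was higher at 11 than at 4 days (0.82 ± 0.21, adjusted p = 0.0227), a call lost without 4-day A (0.0791), 4-day C (0.0612), 11-day A (0.069) or 11-day C (0.0549), or with robust dispersions (0.121). Its call over all groups (0.0359) was lost without saline A, 4-day A, B or C, 8-day C or 11-day A or C (0.05 to 0.159), and with library size scaling (0.222), effective lengths (0.0506) or robust dispersions (0.111). Reads of Ccl21a and its near-identical copy Ccl21b cannot be divided with certainty. Ccl21b had 0.102 to 1.19 CPM in 4-day hearts, against 0.464 to 1.39 CPM in saline hearts, and was not called (adjusted p = 0.342 at 4 days, and 0.0144 without 4-day A, its highest 4-day heart). At 11 against 4 days Ccl21b differed by 1.52 ± 0.50 log2 units (adjusted p = 0.0707, but 0.0182 without a filter and 0.000795 without 4-day A). Of 5 lymphatic markers, Mmrn1 and Reln were lower and Pdpn was higher at 4 days. Mmrn1 averaged 2.63 ± 1.34 CPM in 4-day hearts and 6.15 ± 1.48 CPM in saline hearts (SD, n = 4 each), a log2 fold change of -1.31 ± 0.28 (adjusted p = 0.00902). Between 11 and 4 days Mmrn1 (1.37), Reln (1.06) and Prox1 (0.28) were higher and Pdpn (-1.01) lower. The lymphatic list summed to 63.5 to 74.1 CPM in 4-day hearts, against 69.4 to 86.2 CPM in saline hearts. Most of that sum was Prox1 (46.7 to 51.9 CPM, against 45.8 to 54.6 CPM in saline hearts), which was not called at 4 days. The list's part in the Ccl21a values was not tested.

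Ccl6 and Ccl9, mouse chemokines of myeloid cells that act through Ccr1, were called only under some of the alternatives. Ccl6 had 5.61, 3.65, 4.20 and 3.01 CPM in 4-day hearts, against 2.50, 4.21, 2.26 and 2.57 CPM in saline hearts (0.56 ± 0.22, adjusted p = 0.137). Without saline B, its highest saline heart, the adjusted p was 0.0182. Ccl6 had 3.08, 2.83 and 2.07 CPM in 8-day hearts and 3.62, 2.64, 3.69 and 4.16 CPM in 11-day hearts. Ccl9 averaged 3.01 ± 0.769 CPM in 4-day hearts and 2.15 ± 0.587 CPM in saline hearts (adjusted p = 0.143, and 0.0391 without saline B). Over all groups Ccl9 was called by DESeq2 (0.0313), without a filter (0.0405), with robust dispersions (0.0465) or library size scaling (0.0233). The same held without saline B (0.0146) or 4-day D (0.0217), and at 11 days without saline B (0.0348). Ccl6 was called over all groups with library size scaling (0.0344) or without saline B (0.0218), and at 8 against 4 days with library size scaling (0.0371). Ccl27a, a ligand of Ccr10 known from skin, kept to 1.65 to 2.24 CPM in all 15 hearts, with 1.82, 2.18, 1.73 and 1.73 CPM in 4-day hearts, against 1.82, 1.68, 1.65 and 1.73 CPM in saline hearts (0.12 ± 0.14, adjusted p = 0.71). Its 8-day hearts had 1.80, 2.24 and 2.04 CPM and its 11-day hearts 1.71, 1.95, 1.87 and 2.18 CPM.

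Ccl25, the Ccr9 ligand, had 2.11 to 3.63 CPM in all hearts, and Ccl19, the other Ccr7 ligand, averaged 0.353 ± 0.163 CPM in 4-day hearts and 0.463 ± 0.162 CPM in saline hearts, and neither was called in any comparison. Ccl28 stayed at or under 0.327 CPM, Ccl3 at or under 0.196 CPM, and Ccl4, Ccl5 and Ccl22 at or under 0.118 CPM. Ccl22, a dendritic cell chemokine, had 0 counts in every 11-day heart and 0.0169 to 0.118 CPM in saline hearts, both groups being near the limit of detection.

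Cxcl5, an attractant of neutrophils through Cxcr2, rose at 4 days on few counts. It had 0.4, 0.257, 0.279 and 0.0654 CPM in 4-day hearts (2 to 46 counts), against 0.036, 0.0294, 0.076 and 0.0844 CPM in saline hearts (1 to 9 counts), and 4-day D lay within the saline range. The log2 fold change was 2.19 ± 0.51 (adjusted p = 0.016, but 0.0572 without saline A and 0.0854 without 4-day A). It had 0.0305, 0.296 and 0.191 CPM in 8-day hearts and 0.0375, 0, 0.0359 and 0.119 CPM in 11-day hearts, lower at 11 than at 4 days (-2.15 ± 0.56, adjusted p = 0.0266). That call was lost without 4-day A, 4-day C or 11-day A, B or C (0.0571 to 0.122), and the one over all groups (0.0294) without saline A, 4-day A, 4-day C, 11-day A or 11-day C (0.0554 to 0.154). Cxcl1 and Cxcl2, which share this receptor, were not called, with Cxcl1 at 0.196 to 0.642 CPM in 4-day hearts, against 0.127 to 0.676 CPM in saline hearts. None of 5 neutrophil markers was called at any time, and they summed to 1.90 to 2.94 CPM in 4-day hearts, against 2.15 to 2.85 CPM in saline hearts.

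Cxcl9, Cxcl10 and Cxcl11 are known as interferon-induced ligands of Cxcr3, a receptor of T cells. GENCODE M21 lists Cxcl11 as a polymorphic pseudogene, and whether these mice make its protein was not tested. Cxcl10 had 0.513, 0.128, 0.548 and 0.229 CPM in 4-day hearts, against 0.108, 0.353, 0.161 and 0.0422 CPM in saline hearts (1.22 ± 0.50, adjusted p = 0.164). In 11-day hearts Cxcl10 had 0.0562, 0, 0.0359 and 0.0896 CPM, below every 4-day heart (-2.81 ± 0.54, adjusted p = 0.00494), on 0 to 9 counts a heart. Its 8-day hearts had 0.183, 0.0423 and 0.287 CPM. Cxcl10 shares 133 of its 2252 exon bases with Art3 on the opposite strand. Without a stated strand setting their reads cannot be told apart there. Art3 was lower than saline at 4 days (-0.92 ± 0.12, adjusted p = 0.000632), 8 days (-0.71 ± 0.12, 0.0078) and 11 days (-0.42 ± 0.08, 0.0157). It was higher at 11 than at 4 days (0.51 ± 0.10, adjusted p = 0.00659), and its part in the Cxcl10 values was not tested. The call of Cxcl10 over all groups (0.0178) was lost without 4-day A (0.0791) or 4-day C (0.0773).

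Cxcl9 was the most abundant of the 3 and missed the threshold against saline at each time in the comparisons of the groups by themselves. It had 1.27, 1.08, 1.17 and 1.11 CPM in 4-day hearts, against 1.62, 2.0, 1.33 and 1.86 CPM in saline hearts, with no overlap (-0.51 ± 0.17, adjusted p = 0.0826, but 0.0354 with all groups in one fit and 0.0466 without saline C). In 11-day hearts, at 1.11, 1.27, 1.004 and 1.20 CPM, it was again below every saline heart (-0.56 ± 0.17, adjusted p = 0.096, and 0.0428 with effective lengths), while 8-day hearts had 1.40, 1.73 and 1.60 CPM. Its change over all groups (adjusted p = 0.036) held only when the heart left out was saline C, 8-day A or 11-day B (0.051 to 0.0755 otherwise), and was lost with library size scaling (0.405) or no filter (0.0539). Cxcl11 had 11.3 counts over all hearts, and Cxcl2, Cxcl13, Cxcl15 and Cxcl17 stayed at or under 0.103 CPM in each, with no call.

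Cxcl16 is made as a membrane protein, serves as the ligand of Cxcr6 and is released by shedding. It had 6.60, 4.78, 7.05 and 5.86 CPM in 4-day hearts, against 3.83, 5.24, 3.19 and 3.42 CPM in saline hearts, where saline B overlapped. The log2 fold change was 0.66 ± 0.16 (adjusted p = 0.0217), and leaving out saline A, saline C, saline D, 4-day A or 4-day C ended the call (0.0571 to 0.0795). In 8-day hearts Cxcl16 had 3.96, 4.23 and 6.38 CPM, and in 11-day hearts 3.71, 3.99, 4.32 and 3.88 CPM, all below the 4-day hearts (-0.63 ± 0.12, adjusted p = 0.00373). That call held with each heart left out (0.000259 to 0.0164), and the one over all groups (0.021) was lost without 4-day A (0.0797) or C (0.0852). Zmynd15, on the opposite strand over 552 of 3021 exon bases of Cxcl16, averaged 1.36 CPM in 4-day hearts and 1.06 CPM in saline hearts (0.35 ± 0.20, adjusted p = 0.335).

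Cxcl14, a chemokine of epithelia and stroma, had 1.497, 2.23, 1.49 and 2.72 CPM in 4-day hearts, against 3.26, 3.53, 2.35 and 4.81 CPM in saline hearts. Only 4-day D and saline C overlapped, and the log2 fold change was -0.82 ± 0.24 (adjusted p = 0.0446). The call was lost without saline A, B or D or 4-day A or C (0.064 to 0.139), and with library size scaling (0.0842) or effective lengths (0.0559). Cxcl14 was higher at 11 days, with 5.92, 3.47, 5.004 and 2.43 CPM, than at 4 days (1.14 ± 0.26, adjusted p = 0.0147), lost without 4-day A (0.0539) or C (0.0501) or with robust dispersions (0.0867), and 8-day hearts had 2.96, 3.13 and 2.90 CPM. Over all groups (0.0296) its call ended without 4-day A, 4-day C, 11-day A or 11-day C (0.0689 to 0.119) and with robust dispersions (0.0806).

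Cxcl12 attracts progenitor and immune cells through Cxcr4. It was lower than saline at 11 days, with 45.6, 47.5, 39.6 and 45.4 CPM in 11-day hearts, against 57.5, 61.1, 84.1 and 56.3 CPM in saline hearts. The groups did not overlap (-0.55 ± 0.12, adjusted p = 0.0192), but the call was lost without 11-day A (0.0525) or C (0.0661), and under scaling by library size (0.0897) or with effective lengths as offsets (0.0564). The 4-day hearts had 47.5, 54.1, 59.5 and 49.5 CPM (-0.30 ± 0.13, adjusted p = 0.185) and the 8-day hearts 56.8, 47.3 and 44.9 CPM (-0.39 ± 0.14, adjusted p = 0.225). Saline C was the highest heart, and without it the change over all groups had an adjusted p of 0.0511, against 0.0181 with it (0.0569 with library size scaling and 0.0769 with effective lengths).

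Most Cxcl12 counts fell on the long gamma transcript Cxcl12-201 (88.8 ± 0.67% in 4-day, 87.1 ± 1.67% in 8-day and 89.0 ± 0.82% in 11-day hearts, and 91.4 ± 0.50% in saline hearts). Cxcl12-202, the alpha form, held 6.37, 4.81, 5.32 and 5.93% of the gene's counts in 4-day hearts, against 2.52, 3.09, 2.79 and 2.37% in saline hearts. In 11-day hearts its share was 5.10, 5.84, 5.70 and 4.60%, again above every saline heart, and in 8-day hearts it was 4.98, 2.67 and 7.99%. The exact two-sided permutation test gave p = 0.0286 at 4 and at 11 days, the smallest these group sizes allow, and 0.0857 at 8 days (adjusted over 12 tests, 0.0686, 0.0686 and 0.171), so no share passed the threshold after adjustment. In CPM, Cxcl12-202 averaged 2.93 ± 0.24 in 4-day, 2.56 ± 1.19 in 8-day and 2.36 ± 0.29 in 11-day hearts, and 1.76 ± 0.46 in saline hearts, while Cxcl12-201 averaged 46.8 ± 4.93, 43.2 ± 4.91 and 39.6 ± 3.29, and 59.2 ± 12.2 CPM in saline hearts. Counts favour the longer transcript, Cxcl12-201 having 5627 bases and Cxcl12-202 1878. Per length, as a percent of the gene's TPM, Cxcl12-202 held 17.0, 13.2, 14.5 and 15.9% in 4-day hearts, 13.3, 7.45 and 20.8% in 8-day hearts and 13.9, 15.9, 15.3 and 12.7% in 11-day hearts, against 7.24, 8.73, 8.03 and 6.73% in saline hearts. The 4-day and 11-day hearts were again all above saline. Transcripts that overlap share reads, and the shares are RSEM estimates.

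**Figure D4:**
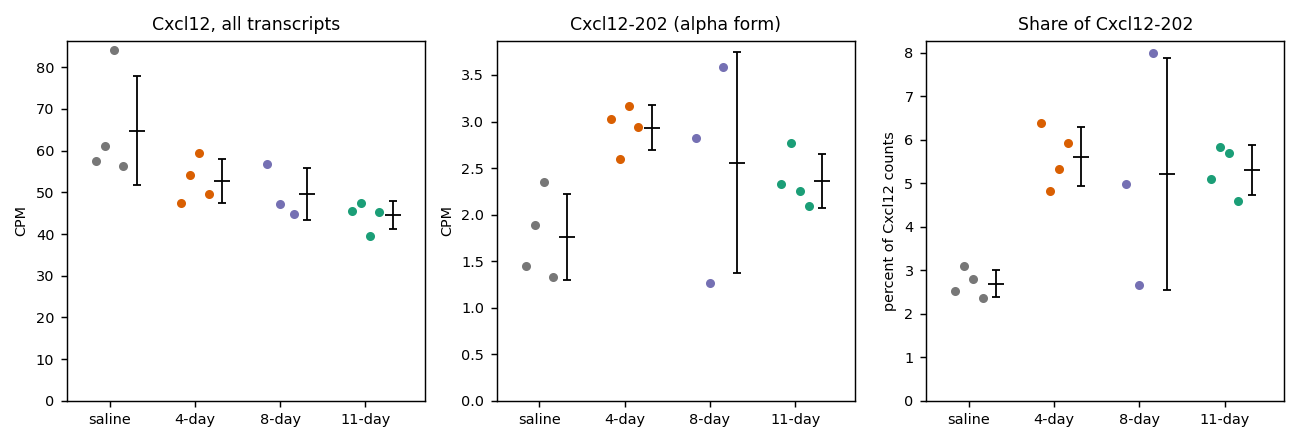
Cxcl12 in each heart, as CPM of the gene, CPM of the alpha transcript Cxcl12-202, and the percent of the gene's counts given to Cxcl12-202, with the mean and SD beside the points. The share of Cxcl12-202 lies at 4.81 to 6.37% in 4-day and 4.60 to 5.84% in 11-day hearts, above the 2.37 to 3.09% of saline hearts, while the gene as a whole is below saline in every 11-day heart.

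Cx3cl1, which is anchored in the membrane and binds Cx3cr1, was not called, with 3.52, 2.41, 3.13 and 2.26 CPM in 4-day hearts, against 3.01, 2.91, 2.24 and 1.77 CPM in saline hearts (0.21 ± 0.19, adjusted p = 0.595). It had 2.50, 2.07 and 3.64 CPM in 8-day hearts and 2.36, 2.06, 2.40 and 2.06 CPM in 11-day hearts. Xcl1, a chemokine of T and NK cells, had 10.9 counts in all, at 0.0261, 0, 0.0186 and 0 CPM in 4-day hearts, against 0.054, 0, 0.0169 and 0 CPM in saline hearts. It had 0 counts in every 8-day heart and in 3 of the 11-day hearts.

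Ackr3 rose at every time. It had 22.0, 22.5, 27.7 and 19.0 CPM in 4-day hearts, 30.3, 24.5 and 27.2 CPM in 8-day hearts and 23.96, 26.8, 21.7 and 23.6 CPM in 11-day hearts, against 16.7, 18.2, 15.1 and 12.3 CPM in saline hearts. Every isoproterenol heart was above every saline heart. The log2 fold changes were 0.55 ± 0.13 at 4 days (adjusted p = 0.0143), 0.80 ± 0.13 at 8 days (adjusted p = 0.00431) and 0.61 ± 0.11 at 11 days (adjusted p = 0.00699). The 4-day call was lost without 4-day C (0.0516), the 8-day call under scaling by library size (0.0798), and the 11-day call held under every alternative run. Ackr3 did not pass the test between times (8 against 4 days, 0.25 ± 0.12, adjusted p = 0.451).

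Ackr4 rose at 4 days, with 5.61, 5.50, 4.68 and 5.46 CPM in 4-day hearts, against 3.17, 2.88, 2.99 and 2.66 CPM in saline hearts. The groups did not overlap, and the log2 fold change of 0.85 ± 0.11 (adjusted p = 0.000672) held with each heart left out (0.000777 to 0.00317). In 8-day hearts Ackr4 had 4.42, 4.02 and 4.24 CPM, still above every saline heart (0.52 ± 0.14, adjusted p = 0.0696 by edgeR and 0.0373 by DESeq2). In 11-day hearts it had 3.07, 3.19, 3.96 and 2.68 CPM, which overlapped saline (0.12 ± 0.13, adjusted p = 0.729) and lay below 4 days (-0.73 ± 0.12, adjusted p = 0.00236). Ackr4 shares 479 of 5380 exon bases with Acad11 on the opposite strand, an enzyme of fatty acid oxidation at 76.2 CPM in 4-day hearts and 88.9 CPM in saline hearts (-0.22 ± 0.11, adjusted p = 0.261). Their reads cannot be told apart there.

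Ackr2 had 0.566, 0.437, 0.715 and 0.654 CPM in 4-day hearts, against 0.576, 0.529, 0.524 and 0.464 CPM in saline hearts (0.18 ± 0.23, adjusted p = 0.715). It had 0.427, 0.635 and 0.606 CPM in 8-day hearts and 0.562, 0.358, 0.646 and 0.518 CPM in 11-day hearts. Ackr1 was at or under 0.212 CPM in all hearts. The 4 atypical receptors summed to 25.1 to 33.3 CPM in 4-day, 29.3 to 35.3 CPM in 8-day and 26.4 to 30.3 CPM in 11-day hearts, above the 15.5 to 21.7 CPM of saline hearts, a sum made up mainly of Ackr3.

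Among 17 conventional chemokine receptors listed, 14 had enough counts to test. Ccr1 and Ccr2, receptors of monocytes and macrophages for the Ccl3 and Ccl2 families, were higher at 4 days (all genes, 6.05% higher and 3.4% lower). Ccr2 had 5.59, 1.75, 4.70 and 5.60 CPM in 4-day hearts, against 1.44, 1.74, 1.61 and 2.11 CPM in saline hearts (1.40 ± 0.29, adjusted p = 0.00741), with 4-day B inside the saline range. The log2 fold change of Ccr1 was 1.17 ± 0.24 (adjusted p = 0.00672), without overlap. The receptors of Cxcl16 (Cxcr6), Cxcl5 (Cxcr2) and the eotaxins (Ccr3) were not called at any time, and Ccr3 had 0 counts in saline hearts and averaged 0.02 CPM in 4-day hearts. At 11 days Cx3cr1 was lower, with 0.375, 0.386, 0.646 and 0.309 CPM in 11-day hearts, against 2.02, 1.06, 1.20 and 0.929 CPM in saline hearts (-1.66 ± 0.29, adjusted p = 0.00689). Between 11 and 4 days Ccr2 (-1.35), Cx3cr1 (-1.60) and Cxcr4 (-0.92) were lower (all genes, 3.75% higher and 6.55% lower). The shares of all genes at 11 days against saline were 1.8% higher and 1.95% lower. The list's median log2 fold change was -0.05 at 4 days and -0.18 at 11 days, against 0.006 and -0.01 over all genes.

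**Figure D5:**
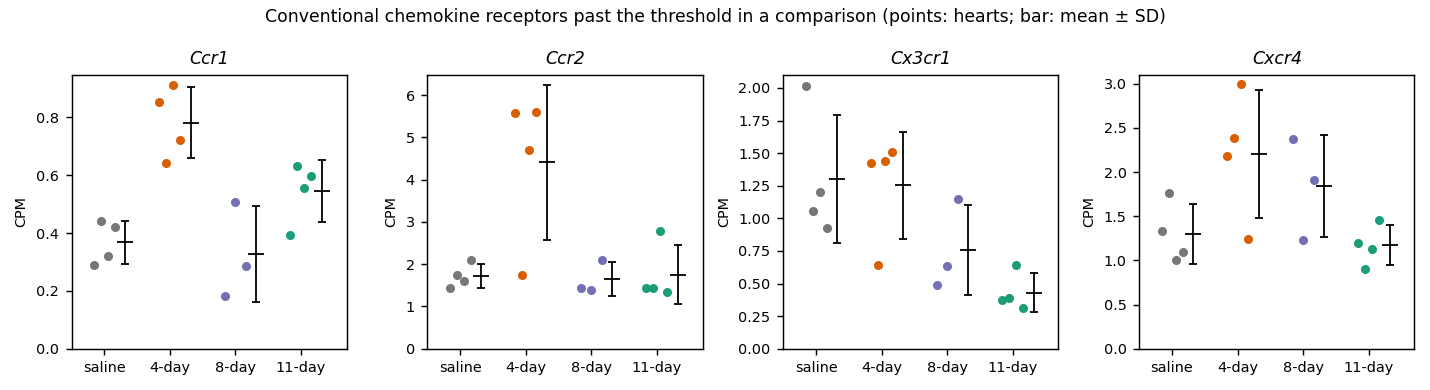
CPM in each heart of the 4 listed conventional receptors past the threshold in a comparison, with the mean and SD beside the points. Ccr1 is higher in every 4-day heart than in saline, Ccr2 is at 4.70 CPM or more in 3 of the 4-day hearts, and Cx3cr1 is at 0.309 to 0.646 CPM in 11-day hearts.

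Cell type markers moved beside these genes, and their part in the chemokine values was not tested. At 4 days 5 of 6 macrophage markers were higher (summed level 67.8 to 106 CPM in 4-day hearts, against 44.6 to 65.1 CPM in saline hearts). So were 3 of 5 recruited monocyte markers (39.0 to 54.4 CPM, against 21.8 to 27.2 CPM in saline hearts). Most of that sum was Msrb1 (35.8 to 51.4 CPM in 4-day hearts, against 19.2 to 25.2 CPM in saline hearts). Chil3 and Plac8 were the other recruited monocyte markers called. Ly6c2 (1.96 to 2.19 CPM, against 1.89 to 5.06 CPM in saline hearts) and Ifitm6 were not. Also higher were 2 of 5 resident macrophage markers (29.8 to 37.6 CPM, against 23.1 to 39.9 CPM in saline hearts). The same held for 5 of 5 fibroblast markers (280 to 412 CPM, against 206 to 249 CPM in saline hearts). Over all genes at 4 days, 6.05% were called higher and 3.4% lower. Between 11 and 4 days 4 of 6 macrophage, 3 of 5 dendritic cell and 2 of 5 fibroblast markers (Dpt and Tcf21) were lower. So was Acta2 of the mural list (all genes, 3.75% higher and 6.55% lower). In that comparison the resident macrophage markers Cbr2 and Folr2 were lower and Lyve1 higher, and the cardiomyocyte marker Actc1 was lower and Myl2 and Tnnt2 higher, while no recruited monocyte marker was called. Of the T cell, B cell, dendritic cell, endothelial and mesothelial lists, 0 of 5 markers each were called at 4 days, and 0 of 3 adipocyte markers. Of the platelet list Pf4 was higher, of the mural list Kcnj8 was lower, and of the cardiomyocyte list Myl2 was lower at 4 days. Later, Lum and Msrb1 were higher than saline at 8 days (all genes, 1.07% higher and 1.2% lower). At 11 days Lum (log2 fold change 1.11), Pdgfra (0.59) and Msrb1 (0.58) were higher than saline. Itgax of the dendritic cell list (-2.32) and Cd79a of the B cell list (-1.79) were lower then (all genes, 1.8% higher and 1.95% lower). No other listed cell type marker was called against saline at 8 or 11 days.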

How the data were processed

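Libraries of total RNA from 15 hearts were trimmed, aligned and quantified by the authors with cutadapt 4.1, HISAT2 2.2.1 and RSEM 1.3.3 on GRCm38.p6, per the submitters' processing notes. The strand setting is not given in the sources used here. The tables deposited by the authors give the expected count, TPM, FPKM and effective length of each gene and transcript, as RSEM estimated them from the aligned reads. After rounding, genes whose expected counts summed to 10 or more were tested with edgeR 4.0.16 (R 4.3.3, limma 3.58.1), by the quasi-likelihood test with TMM scaling and Benjamini-Hochberg adjustment over all 26862 genes tested at a threshold of 0.05. SE is the log2 fold change over the square root of F. FPKM as deposited gave the levels and TPM an alternative for the Cxcl12 shares, whose tests were exact two-sided permutation tests. The test was tried on simulated data first.

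Members past the threshold in any test, and the 3 highest by mean FPKM in each class, are given in every heart, the rest by range. Members and lists were chosen with earlier results of these data known. Alternatives were library size scaling, DESeq2 1.42.0, other filters, effective lengths as offsets, robust dispersions, a replicate block, a fit of all groups, and each heart left out. 1 receptor is not reported here. Overlapping genes came from GENCODE M21. For 3 against 4 hearts the smallest exact p, planned as above 0.05, was 0.0286.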

Additional observations from a re-analysis of the deposited data

Results flagged for a closer look

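In 4 of 57 groups of 4 hearts examined for members given in every heart, 1 heart stood apart from the other 3, and chance gives about 1 in 20. Ackr4 was at 4.681 CPM in 4-day C, against 5.465 to 5.612 CPM in the other 4-day hearts. Ccl6 was at 4.206 CPM in saline B, against 2.256 to 2.575 CPM in the other saline hearts. Ccl8 was at 0.1688 CPM in saline D, on 4 counts, against 0.0588 to 0.072 CPM in the other saline hearts. Xcl1 was at 0.0187 CPM in 11-day A, on 1 count, and at 0 in the other 11-day hearts.

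Responses that differed between treatment times by the edgeR test of the difference itself were those of 9 members. At 8 against 4 days Ccl8 differed by -3.2053 log2 units. At 11 against 4 days the log2 differences were -2.2894 for Ccl8, -1.427 for Ccl12, -1.1533 for Ccl2, -0.7292 for Ackr4, -0.6327 for Cxcl16, -2.8097 for Cxcl10 and -2.1489 for Cxcl5. Ccl21a (0.8155) and Cxcl14 (1.1364) differed in the other direction.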

How the results depend on the processing

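At 4 days 8 members were called, and with each heart left out the count was 5 to 11 (5 without saline A or 4-day C, 11 without saline B). Over all genes the calls were 2540, and 1685 without saline A, 1640 without 4-day C and 2973 without saline B. At 8 days the count of 1 became 2 with library size scaling, filterByExpr or robust dispersions, 3 without a filter or with all groups in one fit, and 4 with DESeq2, and was 1 to 2 with each heart left out (2 without saline C). The calls of all genes at 8 days were 610, and 447 with library size scaling, 562 with filterByExpr and 735 with robust dispersions. They were 893 without a filter, 964 with all groups in one fit, 998 with DESeq2 and 479 without saline C. At 11 days the count of 2 became 1 with library size scaling and was 1 to 3 with each heart left out (1 without 11-day A, 3 without saline A or B). All genes called then were 1006, and 635 with library size scaling, 527 without 11-day A, 721 without saline A and 1422 without saline B. Over all groups the count of 14 was 6 to 15 with each heart left out (7 without 4-day A, 6 without 4-day C, 8 without 11-day A, 9 without 11-day C). For all genes the 3489 calls became 2198 without 4-day A, 2695 without 4-day C, 2930 without 11-day A and 3011 without 11-day C. Between 8 and 4 days the count of 1 became 2 with library size scaling, DESeq2 or no filter and 0 with filterByExpr or effective lengths, and was 0 to 1 with each heart left out. The 67 calls of all genes there became 535, 547, 663, 3 and 17 under these settings, and 0 to 719 with each heart left out. Between 11 and 4 days the count of members was 6 to 11 with each heart left out, against 9. Calls of all genes were 1437 to 3913, against 2766. The difference in the share of Cxcl12-201 at 11 days was -2.843 to -2.251 percentage points with each heart left out and its exact p was 0.0571 when any 1 saline heart was left out, against 0.0286 with all hearts. For single members called in at least 1 setting of a comparison, 1061 results under an alternative were counted. Of these 900 kept their side of the threshold, 61 passed it and 100 fell behind it. No fold change between groups changed direction while called, and the results over all groups have no direction. Apart from fewer samples when a heart is left out, the cause was not tested. Low counts limit Cxcl5, Cxcl10 and Ccl8.

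With the replicate letter as a replicate block the counts were 9 members at 4 days, 3 at 8 days, 2 at 11 days, 8 over all groups, 5 between 8 and 4 days, 10 between 11 and 4 days and 0 between 11 and 8 days. In the same order, all genes called were 2080, 694, 1108, 2867, 425, 2620 and 210. Without the block they were 2540, 610, 1006, 3489, 67, 2766 and 37. The letters did not pair the hearts. Deviations of hearts with the same letter correlated at -0.249 to 0.208, and 0 of 4, 0 of 3 and 0 of 4 hearts correlated best with the saline heart of their own letter at 4, 8 and 11 days.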

Other observations

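Enzymes that trim or shed chemokines also changed. Of 7 listed, Dpp4, which clips the end of Cxcl12 and other chemokines, and the matrix metalloproteinases Mmp2, Mmp12 and Mmp14 were higher at 4 days. Mmp9 was lower (all genes, 6.05% higher and 3.4% lower). Dpp4 had 2.91, 2.47, 4.28 and 2.19 CPM in 4-day hearts, against 1.03, 1.12, 1.31 and 1.22 CPM in saline hearts (log2 fold change 1.36 ± 0.21, SE, adjusted p = 0.00131). Mmp2 averaged 55.4 ± 16.1 CPM in 4-day hearts and 22.0 ± 3.09 CPM in saline hearts (SD, n = 4 each), and its log2 fold change was 1.35 at 4 days, 1.21 at 8 days and 1.12 at 11 days, each past the threshold. Mmp14 was also higher at all 3 times. Mmp9, a gelatinase of myeloid cells, averaged 0.115 ± 0.051 CPM in 4-day hearts and 0.409 ± 0.142 CPM in saline hearts (-1.73 ± 0.39, adjusted p = 0.0129). Dpp4 (-1.105), Mmp12 (-1.41) and Mmp14 (-0.93) were lower at 11 than at 4 days (all genes, 3.75% higher and 6.55% lower). Adam10 and Adam17, which shed Cx3cl1 and Cxcl16, were also lower in that comparison, by small amounts (-0.34 and -0.22).

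Pf4, a CXC chemokine outside the symbol pattern and on the platelet list, had 5.96, 4.67, 4.57 and 4.12 CPM in 4-day hearts, against 3.15, 3.94, 2.19 and 3.42 CPM in saline hearts (0.65 ± 0.17, adjusted p = 0.0323), with no overlap. No other marker of the platelet list was called at 4 days, and the cells behind the rise of Pf4 were not tested. Ppbp, another platelet chemokine, and Ccrl2, a receptor that binds chemerin, were not called in any comparison.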
